A study of Mus musculus with 18 samples.

Results

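The 10 genes described here encode the sodium-potassium-chloride cotransporter NKCC2 (*Slc12a1*), uromodulin (*Umod*), and proteins that act on NKCC2 or on the kinase cascade that phosphorylates it (*Maged2*, *Wnk1*, *Wnk4*, *Stk39*, *Oxsr1*, *Cab39*, *Sorl1* and *Klhl3*). They were chosen by symbol, and all 10 were found among the 55401 genes of the tables. RNA came from 18 pools of thick ascending limb (TAL) tubules microdissected from mouse kidney, each pool from a different adult male on a largely C57BL/6 background. The cortical segment (CTAL) gave 5 WT pools and 5 cKO pools, and the medullary segment (MTAL), taken from the inner stripe (outer medulla), gave 5 WT pools and 3 cKO pools. Both genotypes carried the floxed *Cldn10* alleles (Cldn10 fl/fl). The cKO mice also carried a Cre recombinase under control of Ksp-cadherin, a gene expressed along the distal nephron, so that the deletion was neither restricted to the TAL nor complete, and WT mice were littermates without Cre. Kidneys of cKO mice had calcium deposits (nephrocalcinosis) in the outer medulla, which the study says made cKO MTAL dissection difficult. The part of these deposits in the differences between MTAL genotypes was not tested. All pools held whole tubules, so that fewer cells of a type and less RNA per cell cannot be told apart in any value below. The question was how far the level of these genes differed between segments and with the loss of *Cldn10*, which encodes a claudin of the tight junction.

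NKCC2 carries sodium, potassium and chloride from the urine into TAL cells, and its activity rises when it is phosphorylated. The WNK kinases, which sense chloride and osmotic state, activate the kinases SPAK (*Stk39*) and OSR1 (*Oxsr1*), and these phosphorylate NKCC2 in the TAL and its relative NCC in the distal convoluted tubule. MO25α (*Cab39*) is a scaffold that raises the activity of SPAK and OSR1, and KLHL3 is the substrate adaptor of a cullin-3 ubiquitin ligase that marks WNK kinases for degradation. Uromodulin is the most abundant protein of normal urine, is made by TAL cells, and favours the presence of NKCC2 at the apical membrane. MAGE-D2 is needed for normal NKCC2 expression before birth, and the sorting receptor SORLA (*Sorl1*) acts on SPAK and NKCC2 phosphorylation in the TAL. *Wnk1* makes a long transcript with a full kinase domain and a shorter kidney-specific one that starts inside the gene and lacks most of that domain. Counts per gene merge these forms, as they merge the A, B and F splice forms of *Slc12a1*.

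The proximal promoters shown are those of *Umod*, *Wnk1* and *Klhl3*, the 3 genes lower by the test in WT MTAL than in WT CTAL. Each is the stretch of 250 bases before the RefSeq transcription start in GRCm38.p6, given 5′ to 3′ on the gene's own strand. Capitals mark CpG dinucleotides, of which the *Umod* promoter held none. The *Wnk1* stretch lies at the gene's 5′ end, and not before the start of the kidney-specific form inside the gene.
Umod, chr7:119479263-119479512, minus strand: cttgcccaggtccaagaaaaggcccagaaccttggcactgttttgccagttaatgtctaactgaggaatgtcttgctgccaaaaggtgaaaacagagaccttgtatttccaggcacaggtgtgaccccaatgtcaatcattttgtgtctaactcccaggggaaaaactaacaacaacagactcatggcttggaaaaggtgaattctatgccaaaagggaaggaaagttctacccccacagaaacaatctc
Wnk1, chr6:120038656-120038905, minus strand: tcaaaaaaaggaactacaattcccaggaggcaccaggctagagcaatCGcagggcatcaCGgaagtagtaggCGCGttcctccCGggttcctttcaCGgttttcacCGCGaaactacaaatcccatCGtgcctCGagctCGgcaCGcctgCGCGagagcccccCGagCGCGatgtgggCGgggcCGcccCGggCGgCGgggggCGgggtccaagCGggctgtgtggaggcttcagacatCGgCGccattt
Klhl3, chr13:58113648-58113897, minus strand: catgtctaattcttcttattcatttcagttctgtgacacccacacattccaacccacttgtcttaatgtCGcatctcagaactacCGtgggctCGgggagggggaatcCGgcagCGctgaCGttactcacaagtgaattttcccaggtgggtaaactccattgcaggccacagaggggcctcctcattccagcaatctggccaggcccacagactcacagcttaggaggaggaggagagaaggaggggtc

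All 10 genes had a promoter in the RefSeq table, whose windows take in the first 50 transcribed bases as well and span 300 bases. Over that window *Umod* held 0 CpG, as did 5.43% of the 32851 windows of the table, and its GC content was 47.3%. *Wnk1* held 32 CpG, a number reached by 9.52% of the windows, and its GC content was 63.7%. *Klhl3* held 8 CpG, close to the median of 7 over the table, with a GC content of 52.3% against a median of 52.7%. Neither TATAAA, found in 13.6% of windows, nor the oestrogen-related receptor element TCAAGGTCA, found in 0.423%, was present on either strand in the windows of these 3 genes. The 3 promoters thus had little in common in base composition, and a match or its absence is a description of these letters and not of a factor's binding.

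The total count per pool ranged from 10824299 to 62339939, and the 10 genes together took from 4.07% to 7.22% of it. All 10 passed the filter on low counts in every comparison. *Cldn10* was lower in every cKO pool than in every WT pool of its segment, at 173 ± 10.8 against 501 ± 83.6 CPM (counts scaled to a common library total) in CTAL (SD, n = 5 and 5) and at 215 ± 66 against 756 ± 59.8 CPM in MTAL (SD, n = 3 and 5). The study kept only cKO pools with lower *Cldn10* than WT, so that this separation was partly set by that choice. The totals were TMM-normalised over the 18 pools. One pool, WT CTAL replicate 1, has labels that conflict, with a WT pool name and a knock-out genotype field. It was used as WT by its pool name and held 446 CPM of *Cldn10*, within the WT range. That level cannot settle the label, since the study excluded a cKO CTAL pool with a WT-like *Cldn10* level. Among the markers of other cells, summed TPM were far below the 19569 to 42680 of the 7 TAL markers. They lay between 37.1 and 773 for principal cells, 72.2 and 201 for immune cells, 25.1 and 84.1 for endothelium, 6.84 and 86.0 for the thin limb, 4.94 and 79.1 for intercalated cells, 1.24 and 51.0 for the distal convoluted tubule, 2.25 and 35.4 for the proximal tubule, 2.51 and 24.7 for fibroblasts and 0.544 and 5.52 for the macula densa. The highest principal cell, intercalated cell, proximal tubule and fibroblast sums were those of cKO MTAL replicate 20, and the highest distal convoluted tubule sum was that of cKO CTAL replicate 2. Between the MTAL genotypes, the TAL sum, which includes *Umod*, did not overlap. It was 19569 to 23426 TPM in WT MTAL and 30729 to 37308.5 TPM in cKO MTAL. The sums of 2 lists of other cells did not overlap either. The proximal tubule sum was 2.25 to 4.29 TPM in WT MTAL and 4.38 to 35.4 TPM in cKO MTAL, and the endothelial sum was 39.0 to 55.2 TPM in WT MTAL and 25.1 to 32.3 TPM in cKO MTAL. Each of the 4 proximal tubule markers overlapped on its own. In cKO MTAL replicate 20, *Slc34a1* gave 32.2 TPM of the proximal tubule sum and *Col3a1* 20.1 TPM of the fibroblast sum. The part of proximal tubule and endothelial cells in the differences between the MTAL genotypes was not tested.

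*Slc12a1* and *Umod* were among the most abundant transcripts of every pool. Ranked by TPM, the transcript abundances that correct for transcript length, *Umod* stood between place 4 and place 17 and *Slc12a1* between place 20 and place 27. The mean level of *Umod* was 23475 ± 1422 TPM in WT CTAL, 26298 ± 1630.5 TPM in cKO CTAL, 13176 ± 1238 TPM in WT MTAL and 23560.2 ± 2272 TPM in cKO MTAL. *Slc12a1* had between 4247 and 4446 TPM on average in the 4 groups. The group means of the regulators were far lower, at 162 to 211 TPM for *Wnk4*, 65.4 to 492 for *Wnk1*, 103 to 148 for *Sorl1*, 71.3 to 85.3 for *Stk39*, 71.1 to 85.5 for *Cab39*, 18 to 19.7 for *Oxsr1*, 16.2 to 22.9 for *Maged2* and 6.92 to 14.9 for *Klhl3*. The adaptor KLHL3 thus had the lowest transcript level of the 10 genes in each group.

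**Figure D1:**
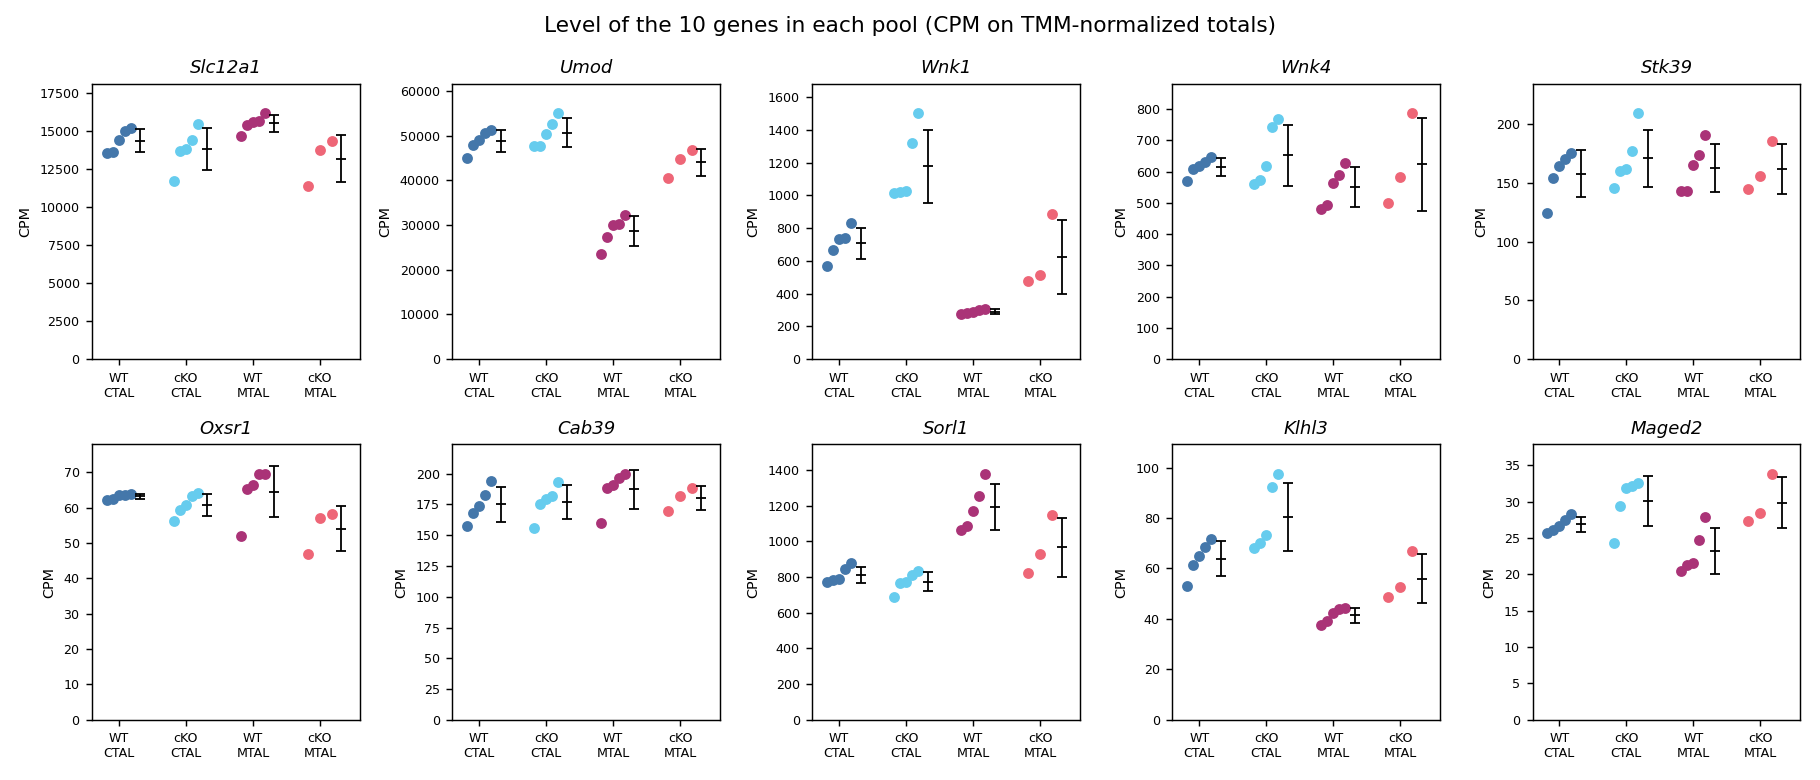
Level of each of the 10 genes (y axis, CPM on TMM-normalised totals, from 0) in each pool (points), by group (x axis), with the group mean and SD as bars beside the points. *Umod* and *Wnk1* lie lowest in the 5 WT MTAL pools, where *Wnk1* stays between 276 and 308 CPM.

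*Slc12a1* (chr2:125152505-125230002, plus strand) differed little between groups. It had 14414, 13531, 13644, 15191 and 14999.8 CPM in the WT CTAL pools and 11752, 13859, 14438, 13667 and 15484 CPM in the cKO CTAL pools. In MTAL it had 15701, 16187, 14666, 15411 and 15609 CPM in WT and 13793, 11416 and 14338 CPM in cKO. The CTAL genotypes overlapped, whereas all 3 cKO MTAL pools lay below the lowest WT MTAL pool. The log2 fold change of cKO MTAL over WT MTAL was −0.18 (SE 0.11) and did not pass the test (adjusted p = 0.348, edgeR quasi-likelihood F test, Benjamini-Hochberg over all genes tested). An interval of 2 SE to either side ran from −0.40 to 0.04. On the TPM scale, where the median of all genes itself was higher in cKO MTAL by 0.19 on the log2 scale, the estimate was 0.02. The differences of cKO CTAL from WT CTAL (−0.06, interval −0.25 to 0.13) and of WT MTAL from WT CTAL (0.10, interval −0.05 to 0.25) did not pass either, so that changes of *Slc12a1* above about these bounds were not seen in either segment.

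*Umod* (chr7:119462711-119479282, minus strand) was lower in WT MTAL than in WT CTAL and higher in cKO MTAL than in WT MTAL. Its levels were 51294, 50724, 49079, 47899.6 and 44958 CPM in WT CTAL. They were 32278, 27320.5, 23565, 30274 and 30069 CPM in WT MTAL. Every WT MTAL pool lay below every WT CTAL pool, and the log2 fold change was −0.78 (SE 0.09, adjusted p = 4.11e-05, edgeR quasi-likelihood F test), a level 41.6% lower. In the cKO MTAL pools *Umod* had 40645, 44687 and 46716 CPM, all above the highest WT MTAL pool. The log2 fold change over WT MTAL was 0.67 (SE 0.11, adjusted p = 0.00223, edgeR), a 1.59-fold higher level. The cKO CTAL pools, at 50326, 52687, 55062, 47716 and 47736 CPM, overlapped the WT CTAL pools, with a log2 fold change of 0.04 (interval −0.15 to 0.24, adjusted p = 0.907, edgeR).

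The difference between both genotype effects on *Umod* was itself tested in one fit of the 18 pools. It was 0.61 on the log2 scale (SE 0.13, adjusted p = 0.045, edgeR), with 0.286% of the 12586 genes tested called in this way. The adjusted p lay close to the threshold and passed it in 13 of 26 alternative settings, over which the estimate stayed between 0.56 and 0.68. It was 0.131 with limma on log2(TPM + 1), 0.0595 with WT CTAL replicate 1 counted as cKO, and between 0.053 and 0.0824 when any 1 of 10 pools was left out. These pools were WT CTAL replicates 1, 8 and 10, cKO CTAL replicates 2, 4, 9 and 21, WT MTAL replicates 15 and 19 and cKO MTAL replicate 20. No other of the 10 genes passed the interaction test. In order of mean CPM, *Umod* ran from cKO CTAL through WT CTAL and cKO MTAL to WT MTAL, and of the neighbours in this order only cKO MTAL and WT MTAL differed by the test. The comparison of cKO MTAL with WT CTAL gave −0.11 (interval −0.31 to 0.09), and that with cKO CTAL gave −0.13 (interval −0.36 to 0.09).

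Set against *Slc12a1* in the same pool, *Umod* had 4.73 to 6.16 times its TPM in WT CTAL, 4.92 to 7.16 times in cKO CTAL and 4.74 to 6.38 times in cKO MTAL. In WT MTAL the ratio was 2.61 to 3.38, below all other pools. *Umod* transcripts took 2.36% to 3.06% of all counts in the WT MTAL pools and 4.35% to 5.46% in the others. Uromodulin and NKCC2 are both defining products of the TAL, and their transcripts thus stood in another proportion in WT MTAL than elsewhere.

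**Figure D2:**
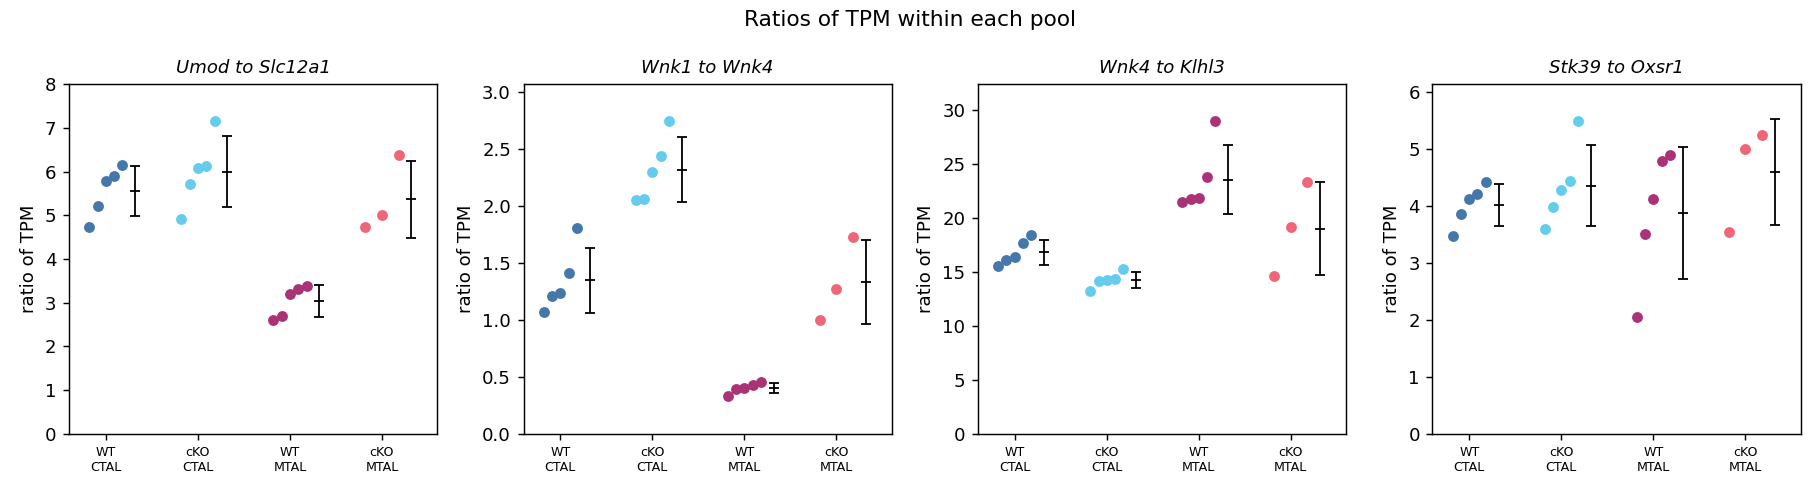
Ratio of the TPM of paired genes within each pool (y axis, from 0; points are pools, bars the group mean and SD). The ratio of *Umod* to *Slc12a1* lies between 2.61 and 3.38 in WT MTAL and at or above 4.73 in all other pools, and that of *Wnk1* to *Wnk4* is below 0.5 in WT MTAL and at or above 0.999 in all others.

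*Maged2* (chrX:150806370-150814345, minus strand) was scarce, between 20.4 and 33.8 CPM over all pools. Its mean was 26.9 ± 1.09 CPM in WT CTAL, 30.0 ± 3.45 in cKO CTAL, 23.2 ± 3.1 in WT MTAL and 29.8 ± 3.47 in cKO MTAL (SD, n = 5, 5, 5 and 3). WT and cKO pools overlapped in both segments. The log2 fold change was 0.41 in MTAL (SE 0.18, interval 0.06 to 0.77) with an adjusted p of 0.166, and 0.15 in CTAL (interval −0.05 to 0.35) with an adjusted p of 0.617 (edgeR). The MTAL difference passed in 1 of 15 alternative settings, one fit of all 18 pools.

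*Wnk1* (chr6:119923969-120038672, minus strand) had the largest differences of the 10 genes. It had 829, 569, 731, 669 and 737 CPM in WT CTAL. In WT MTAL it had 286, 308, 299, 276 and 279 CPM. Each WT MTAL pool was thus below each WT CTAL pool, and the log2 fold change was −1.30 (SE 0.09, adjusted p = 2.99e-07, edgeR quasi-likelihood F test). The cKO MTAL pools held 477, 511 and 884 CPM, all above the WT MTAL pools, for a log2 fold change of 1.16 (SE 0.16, adjusted p = 0.000429, edgeR), a 2.23-fold higher level. Replicate 20, with 884 CPM, was also the pool with the most principal cell transcripts. Without it the log2 fold change was 0.83, with an adjusted p of 0.00081 (edgeR).

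*Wnk1* also rose in the cortex. The cKO CTAL pools had 1019.7, 1016, 1320.4, 1025 and 1502 CPM, all above the WT CTAL pools. The log2 fold change was 0.73 (SE 0.13, adjusted p = 0.0112, edgeR), and *Wnk1* was the only one of the 10 genes called in this comparison. The difference between the genotype effects of both segments, 0.42 (SE 0.22, interval −0.03 to 0.86), did not pass the test (adjusted p = 0.391, edgeR), and it was 0.08 without cKO MTAL replicate 20 and 1.01 with limma on log2(TPM + 1). In order of mean CPM the groups ran from cKO CTAL (1177 ± 224) through WT CTAL (707 ± 95.8) and cKO MTAL (624 ± 225) to WT MTAL (289.7 ± 13.6). Of these neighbours, WT CTAL and cKO MTAL did not differ by the test (log2 fold change −0.14, interval −0.50 to 0.22, adjusted p = 0.706, edgeR). Without cKO MTAL replicate 20 that log2 fold change was −0.46 (SE 0.14, adjusted p = 0.114, edgeR). Cells of the distal convoluted tubule express the kidney-specific *Wnk1* form strongly, and their 4 markers summed to 1.24 to 4.53 TPM in WT MTAL and 2.74 to 4.21 TPM in cKO MTAL. In CTAL they summed to 3.52 to 14.8 TPM in WT and 3.93 to 51.0 TPM in cKO, where the highest pool, replicate 2, had 1019.7 CPM of *Wnk1*, within the range of the other cKO CTAL pools. Without that pool the *Wnk1* log2 fold change in CTAL was 0.78 (adjusted p = 0.0102, edgeR). In that pool *Calb1* had 26.8 and *Slc12a3* 23.9 TPM, against 0.239 for *Trpm6* and 0.093 for *Pvalb*. The part of distal convoluted tubule cells in the *Wnk1* differences was not tested.

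*Wnk4* (chr11:101260567-101277409, plus strand), the other WNK kinase of these tubules, did not pass any test. It lay between 481 and 787 CPM over the 18 pools, with means of 615 ± 29.1 in WT CTAL, 652 ± 96.6 in cKO CTAL, 551 ± 63.0 in WT MTAL and 623 ± 148 in cKO MTAL. The log2 fold change was 0.23 in MTAL with the loss of *Cldn10* (interval −0.06 to 0.52) and 0.07 in CTAL (interval −0.12 to 0.27). The ratio of the TPM of both genes thus moved with *Wnk1*. This ratio is over all *Wnk1* forms, with and without the full kinase domain, and also moves with the transcript length by which TPM divide. The TPM of *Wnk1* was 1.07 to 1.81 times that of *Wnk4* in WT CTAL and 2.06 to 2.75 times in cKO CTAL. It was 0.330 to 0.459 times in WT MTAL and 0.999 to 1.73 times in cKO MTAL. In WT MTAL alone *Wnk4* had the higher TPM of the pair in every pool.

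The counts and TPM together also show over what length of transcript the reads of a gene were spread, since TPM divide by that length. The length implied by the 2 tables was computed after seeing the data, scaled in each pool on 762 genes with 1 annotated transcript. For these genes the implied length was mostly 0.709 to 1.14 times the annotated one (5th and 95th percentile). For *Wnk1* it was 3242 to 4282 bases in WT CTAL, 3379 to 3941 in cKO CTAL and 3338 to 3971 in cKO MTAL. In WT MTAL it was 6357, 5106, 5678, 6063 and 6613 bases, above every pool of the other groups. *Wnk1* was the only one of the 10 genes whose implied length did not overlap between cKO MTAL and WT MTAL, where 3.66% of 8725 genes did not, and between WT MTAL and WT CTAL, where 0.619% did not. Its log2 ratio of mean lengths was −0.73 in the first comparison, with 25 genes farther below 0. It was 0.58 in the second, with 9 genes farther above 0. In cKO CTAL against WT CTAL it overlapped, with a log2 ratio of −0.14. None of the 10 genes was separated in that comparison, where 0.458% of genes were.

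The annotation of *Wnk1* (GENCODE, GRCm38) holds 26 transcripts. The 6 that start within 2000 bases of the gene's 5′ end are 5745 to 11330 bases long (the 5 coding ones 8163 to 11330), and the 20 that start inside the gene are 181 to 5825 bases long (the 10 coding ones 181 to 1426), so that the lengths of both classes overlap. Transcripts of single forms were not analysed here, so that the implied length is a mean over forms and names none of them. The *Wnk1* differences were larger on the TPM scale, in a fit that also differs in test and normalisation. With limma on log2(TPM + 1) the log2 fold change was 1.99 for cKO MTAL over WT MTAL (adjusted p = 0.00325) and 0.98 for cKO CTAL over WT CTAL (adjusted p = 0.012). For WT MTAL over WT CTAL it was −1.92. For the other 9 genes the implied length was close to that in WT CTAL in nearly all pools, and the lowest values were those of *Oxsr1* (3204 bases against a median of 4791 in the same group) and *Maged2* (1415 against 2141) in single WT MTAL pools.

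**Figure D3:**
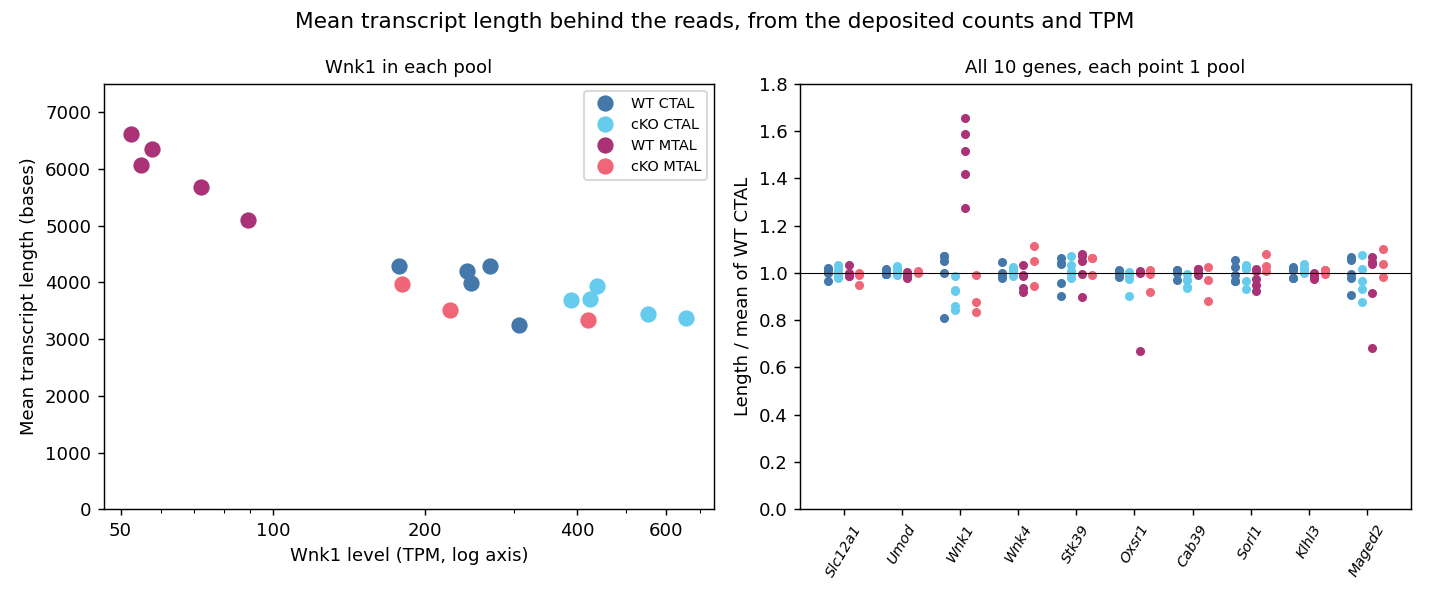
Left, mean transcript length behind the *Wnk1* reads (y axis, bases) against its level (x axis, TPM, log axis), each point 1 pool. Right, the same length for all 10 genes divided by its mean in WT CTAL. The 5 WT MTAL pools stand apart for *Wnk1*, with 5106 to 6613 bases at the lowest levels, while the other 9 genes lie near 1 in most pools.

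The kinases below the WNKs and their scaffold passed the test in no comparison. *Stk39* (SPAK) lay between 125 and 209.7 CPM, with group means of 158 to 171. *Cab39* (MO25α) lay between 156 and 199.9 CPM, with group means of 175 to 187. The largest of their log2 fold changes in the comparisons between groups was 0.10 (*Stk39*, cKO CTAL over WT CTAL), and the intervals of their genotype differences stayed within −0.23 and 0.32. *Oxsr1* (OSR1) lay between 46.8 and 69.6 CPM. Its log2 fold change was −0.21 in cKO MTAL over WT MTAL (interval −0.49 to 0.08) and −0.07 in cKO CTAL over WT CTAL (interval −0.20 to 0.06). The TPM of *Stk39* was 2.05 to 5.49 times that of *Oxsr1* over all pools, and SPAK thus had the higher transcript level of both kinases everywhere.

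*Klhl3* (chr13:58000228-58113592, minus strand) was lower in WT MTAL than in WT CTAL. It had 71.5, 53.2, 65.1, 68.5 and 61.3 CPM in WT CTAL. It had 37.4, 43.9, 44.3, 42.2 and 39.3 CPM in WT MTAL. These groups did not overlap, and the log2 fold change was −0.64 (SE 0.10, adjusted p = 0.000682, edgeR quasi-likelihood F test). The cKO MTAL pools, at 66.8, 48.5 and 52.6 CPM, all lay above the WT MTAL pools, with a log2 fold change of 0.49 (SE 0.15, interval 0.18 to 0.79) that did not pass the test (adjusted p = 0.0665, edgeR). That difference passed in 5 of 15 alternative settings, over which the adjusted p ran from 0.0192 to 0.291, and was 0.0423 without cKO MTAL replicate 18. The cKO CTAL pools had 68.3, 70.2, 97.5, 73.3 and 92.4 CPM and overlapped WT CTAL, with a log2 fold change of 0.32 (interval 0.09 to 0.54, adjusted p = 0.259, edgeR). The ratio of the TPM of *Wnk4*, a substrate of the KLHL3 ligase, to that of *Klhl3* was 15.6 to 18.4 in WT CTAL, 13.2 to 15.2 in cKO CTAL, 21.4 to 28.9 in WT MTAL and 14.6 to 23.3 in cKO MTAL.

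*Sorl1* (chr9:41964720-42124297, minus strand) was the only one of the 10 genes that passed the test with a higher level in WT MTAL than in WT CTAL. It had 775, 843, 781, 879 and 789 CPM in WT CTAL. It had 1169, 1256, 1066, 1088 and 1378 CPM in WT MTAL. The groups did not overlap, and the log2 fold change was 0.54 (SE 0.08, adjusted p = 0.000532, edgeR). The cKO MTAL pools, at 931, 1146 and 824 CPM, overlapped the WT MTAL pools, with a log2 fold change of −0.25 (interval −0.50 to −0.0011, adjusted p = 0.238, edgeR). In CTAL the log2 fold change with the loss of *Cldn10* was −0.08 (interval −0.23 to 0.07).

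**Figure D4:**
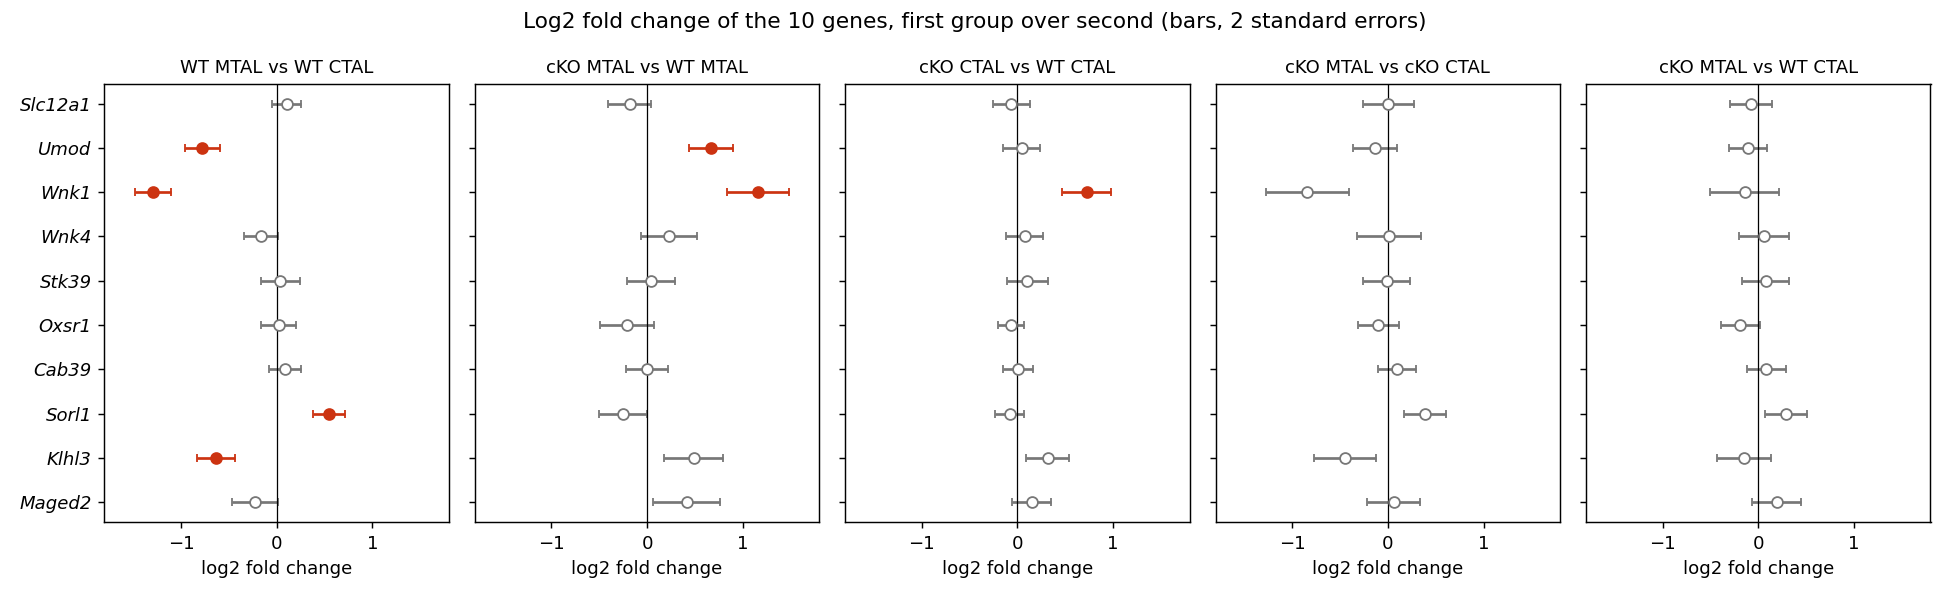
Log2 fold change (x axis) of the 10 genes in the 5 comparisons between groups, first group over second, with bars of 2 SE to either side. Filled red points passed the test at an adjusted p under 0.05: 4 genes between the WT segments, 2 between the MTAL genotypes (*Umod* and *Wnk1*), 1 between the CTAL genotypes (*Wnk1*) and 0 in both comparisons of cKO MTAL with a CTAL group.

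Over the list, the WT segments differed in 4 of the 10 genes (*Wnk1*, *Umod* and *Klhl3* lower, *Sorl1* higher in MTAL), against 6.87% of the 11650 genes tested. The same 4 were the genes whose pools did not overlap, against 7.30% of all genes. With a log2 fold change of at least 1 as well, 1 of the 10 was called (*Wnk1*), against 2.32%. In cKO MTAL against WT MTAL, 2 of 10 were called, both higher, against 7.01% of 12060 genes. Of the 10, 4 did not overlap (*Slc12a1*, *Umod*, *Wnk1* and *Klhl3*), against 15%, and 1 had a log2 fold change of at least 1 (*Wnk1*), against 3.74%. The median log2 fold change was 0.13 over the 10 genes and 0.0012 over all genes. In cKO CTAL against WT CTAL, 1 of 10 was called, against 1.22% of 11702 genes, and 1 did not overlap, against 3.13%.

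The cKO MTAL pools were also compared with both CTAL groups. None of the 10 genes was called by edgeR's quasi-likelihood test against cKO CTAL, where 1.75% of 12044 genes were, and 3 had an unadjusted p under 0.05 (*Wnk1*, *Sorl1* and *Klhl3*). DESeq2 and the likelihood ratio test of edgeR each called 2 of the 10 (*Wnk1* and *Sorl1*). The pools did not overlap for 3 of the 10 (*Umod*, *Wnk1* and *Klhl3*), against 10.8% of all genes. For *Wnk1* the log2 fold change was −0.84 (SE 0.22, adjusted p = 0.0768, edgeR), and without cKO MTAL replicate 20 it was −1.19 (adjusted p = 0.00936, edgeR). With cKO CTAL replicate 2 left out as well, which was chosen after seeing the data, it was −1.24 (adjusted p = 0.00596, edgeR). Against WT CTAL, 0 of 10 were called by edgeR's quasi-likelihood test, where 2.50% of 12024 genes were. There 1 had an unadjusted p under 0.05 (*Sorl1*), and 1 did not overlap (*Oxsr1*), against 12%. These comparisons share the 3 cKO MTAL pools with that against WT MTAL, and are no independent repeats of it.

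A list of 41 other genes of the pathway was tested in the same fits, of which 36 or 37 passed the filter in a comparison. *Wnk2*, *Wnk3* and *Slc12a5* passed it in none, and *Stx4* was not analysed here. In cKO MTAL against WT MTAL, 2 of 36 were called (5.56%), 1 higher and 1 lower, against 7.01% of 12060 genes. The list's median was 0.08 against 0.0012 over all genes.

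By role, none of the 7 WNK-SPAK partners, 7 phosphatase genes, 4 genes of uromodulin processing and transcription and 3 MAGE-D2 partners tested was called by edgeR's quasi-likelihood test in cKO MTAL against WT MTAL. At an unadjusted p under 0.05 there were 2 of the partners, 2 phosphatase genes, 1 of the uromodulin group and 1 of the MAGE-D2 group. The WNK-SPAK partners include *Cul3*, the scaffold of the KLHL3 ligase, at 137 ± 15.9 CPM in WT MTAL and 101 ± 20.3 CPM in cKO MTAL (log2 fold change −0.39, adjusted p = 0.116, edgeR). The uromodulin group includes hepsin, the protease that releases uromodulin into urine. *Mal*, a membrane protein that retains NKCC2 at the apical surface, missed the threshold at an adjusted p of 0.0503 (edgeR), with 765 ± 72.1 CPM in WT MTAL and 986 ± 185 CPM in cKO MTAL.

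In cKO CTAL against WT CTAL, edgeR's quasi-likelihood test called 0 of 37 genes of this list, against 1.22% of 11702 genes. Of the list, 2 had an unadjusted p under 0.05 (*Klhl2* and *Slc12a7*). Between the WT segments the quasi-likelihood test called 0 of 36, against 6.87% of 11650 genes, with 7 of the list at an unadjusted p under 0.05. DESeq2 called 3 and edgeR's likelihood ratio test 1. Against cKO CTAL, cKO MTAL differed in 1 of 37, where 1.75% of 12044 genes were called. This was *Cab39l*, which encodes MO25β and had 77.2 ± 8.72 CPM in cKO CTAL and 103 ± 5.32 CPM in cKO MTAL (log2 fold change 0.48, SE 0.11, adjusted p = 0.0434, edgeR). Against WT CTAL, cKO MTAL differed in 1 of 37, where 2.50% of 12024 genes were called. This was *Slc12a4*, the cotransporter KCC1, with 47.7 ± 4.38 CPM in WT CTAL and 66.6 ± 1.86 CPM in cKO MTAL (log2 fold change 0.52, SE 0.11, adjusted p = 0.0275, edgeR). The *Cab39l* call was lost in 13 of 17 alternative settings, which include leaving out any 1 of the cKO CTAL pools or cKO MTAL replicate 16 or 20. The *Slc12a4* call was lost in 8 of 16, which include leaving out WT CTAL replicate 1, 8, 10 or 22 or cKO MTAL replicate 16.

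The genes most like *Slc12a1* and *Umod* over the 18 pools were found by Pearson's r of log2(CPM + 1) among 12585 other genes, as a description in which the points share group and library. For *Umod* they were *Scn4b*, a sodium channel subunit (r = 0.97), *Ggt1*, a gamma-glutamyltransferase (r = 0.97), and *C130074G19Rik* (r = 0.96). With group means removed, r was 0.80, 0.72 and 0.49. For *Slc12a1* they were *Pcf11*, which acts in transcript 3′ end formation (r = 0.87), *Pink1*, a mitochondrial kinase (r = 0.86), and *Ddrgk1* (r = 0.85), and with group means removed r was 0.80, 0.78 and 0.84.

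Some of the 10 genes overlap another annotated gene. *Slc12a1*, *Umod*, *Wnk1*, *Wnk4* and *Sorl1* each have an annotated gene on the opposite strand, and *Wnk1*, *Klhl3*, *Maged2* and *Oxsr1* hold a small RNA gene on their own strand. *Oxsr1* also overlaps the coding gene *Slc22a14* on the same strand. Whether the authors' counting used the strand is not given in the sources used here, so that these values may include reads of the overlapping gene.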

How the data were processed

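Poly-A RNA of 18 pools, each of microdissected tubules of 1 mouse, was sequenced from both ends with a strand-specific kit. Reads were trimmed by the authors with fastp (the labels' tool list names Trimmomatic), mapped them to mm10 with DRAGEN and quantified them on a gencode annotation. They deposited estimated counts per gene, which are not normalized, and TPM values, which also take transcript length into account and have one total in all pools. The design had assumed whole counts, and the estimated counts were rounded. The total count per pool was 10824299 to 62339939. Pools that the study excluded were not analysed here.

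A minimum of 3 CPM in 5 pools (in 3 pools for comparisons with cKO MTAL) was required. Counts of the compared groups only were TMM-normalized and fitted in edgeR 4.0.16 under R 4.3.3, with quasi-likelihood F tests. Adjusted p-values are Benjamini-Hochberg over all genes tested, and a gene was called under 0.05. Errors of log2 fold changes are SE from the F statistic. Levels are mean ± SD over pools. Each pool came from 1 animal. The named genes are the 10 genes, *Cldn10*, called genes of the pathway list (some of which are not reported here), the 3 genes most like *Slc12a1* and *Umod*, and marker genes. *Cul3*, *Mal*, *Klhl2* and *Slc12a7* were named after their values were seen. The genes, lists and tests were chosen with earlier results of these data known. Alternatives used DESeq2 (version 1.42.0) and limma (version 3.58.1) among others. The test script was checked on simulated counts. Sequences are from RefSeq (GRCm38.p6).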

Additional observations from a re-analysis of the deposited data

Results flagged for a closer look

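In WT MTAL, *Oxsr1* of replicate 13 (51.96 CPM) lay far below the other 4 pools, with a gap to its nearest neighbour of 0.755 of the group's range. *Cab39* of replicate 15 (160.3 CPM) did so as well, with a gap of 0.718 of the range. These were 2 of 30 groups of 5 pools looked at, and chance alone marks about 1 group in 20 in this way. The genotype difference of *Umod* differed between the segments by 0.607528 on the log2 scale (interaction term, adjusted p = 0.045, edgeR), with the limits given above.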

How the results depend on the processing

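No paired analysis was possible because the 4 groups share no replicate number and each pool came from a different animal. Of 1100 values of the 10 genes under the alternatives, 996 kept their direction and their side of the threshold, 13 lost a call (all of them the *Umod* interaction), 16 gained one, 75 changed sign without being called, and 0 changed sign with a call. The calls of *Wnk1* (3 comparisons), *Umod* (2), *Klhl3* and *Sorl1* (1 each) held in every alternative run. Their adjusted p was at most 0.0449 (*Klhl3* between the WT segments). In one fit of all 18 pools, 4 of the 10 genes and 7 of the pathway list were called in cKO MTAL against WT MTAL (2 and 2 in the pairwise fit), 3 and 2 against cKO CTAL, 3 of the pathway list against WT CTAL, and 1 of the pathway list between the WT segments. The likelihood ratio test of edgeR and that of DESeq2 called 2 and 2 of the 10 genes and 2 and 3 of the pathway list in cKO MTAL against cKO CTAL, 2 and 2 of the pathway list against WT CTAL, and 1 and 3 of it between the WT segments. Without a filter on low counts the numbers were 1 of the 10 genes and 0 of the pathway list against cKO CTAL, and 1 of the pathway list between the WT segments. The pathway list gave 0 against cKO CTAL with DESeq2's size factors, with total counts and with limma on TPM, and 0 against WT CTAL with limma on TPM. With WT CTAL replicate 1 counted as cKO CTAL, the pathway list gave 2 against cKO CTAL and 0 against WT CTAL, and the interaction gave 0 of the 10 genes. The interaction also gave 0 with limma on TPM and 0 without cKO MTAL replicate 20 and cKO CTAL replicate 2, and without these pools 1 of the 10 genes was called against cKO CTAL. Leaving out single pools gave 0 to 1 of the 10 genes in the interaction and against cKO CTAL (1 without cKO MTAL replicate 20, *Wnk1*). For the pathway list it gave 1 to 2 in cKO MTAL against WT MTAL, 0 to 1 against cKO CTAL, 0 to 3 against WT CTAL (3 without cKO MTAL replicate 20) and 0 to 1 between the WT segments (1 without WT CTAL replicate 3 or WT MTAL replicate 11 or 15). The causes were not tested. TPM scaling raised the median of all genes by 0.19 in cKO MTAL against WT MTAL, 0.13 in cKO CTAL against WT CTAL and 0.14 in cKO MTAL against WT CTAL, so that values on that scale are relative to those shifts. With 3 pools of cKO MTAL, log2 fold changes of 0.49 (*Klhl3*) and 0.41 (*Maged2*) did not pass in the pairwise fit. Both passed in the fit of all 18 pools.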
